A study of Mus musculus with 2 samples.

Results

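Efferocytosis is the engulfment of apoptotic cells by macrophages and other phagocytes. Phosphatidylserine on the surface of the dying cell is recognised by receptors such as Timd4 and Stab1, or through soluble bridging proteins. Gas6 and Pros1 bridge to the TAM receptor tyrosine kinases Tyro3, Axl and Mertk, whereas Mfge8 bridges to integrins that contain the αv subunit, encoded by *Itgav*. Engulfment through these receptors is known to be accompanied by a dampened inflammatory response, and the lipid cargo is handled by scavenger receptors such as Cd36. The mRNAs of these 10 genes, chosen by name, were examined among the 32291 genes measured by single-cell RNA sequencing of colitis-associated colon cancers (CACs) of mice. All 10 genes had UMIs in both libraries, and the cell types in which each mRNA was highest differed between them. Between the libraries, *Mfge8* differed most in macrophages.

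The CACs came from mice labelled Mir34a_F/F, which carry a floxed *Mir34a* gene and served as controls, and from mice labelled Mir34a_Mye_KO, which carry the same floxed gene together with *LysM-Cre*. This Cre is expressed from the *Lyz2* locus in myeloid cells, among them macrophages, monocytes and neutrophils. T cells, B cells, epithelial cells, endothelial cells and fibroblasts are therefore not targeted. Whether dendritic cells, mast cells and basophils were targeted was not tested. All mice were on a C57Bl/6 background, were 6 to 10 weeks old at the first injection of azoxymethane (AOM, 10 mg/kg), received a second injection of AOM and 3 cycles of dextran sodium sulfate (DSS, 2.5% in the first cycles and 2% in cycle 3, for 5 days each), and were killed 110 days after AOM was first given. The CACs of 3 female mice, 6 to 8 in number, were combined into 1 library per genotype. Therefore, the spread between mice is not known, no test between genotypes was made, and a difference between libraries is a difference between 2 pools.

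In total, 20312 cells of the library labelled Mir34a_F/F and 18571 cells of the library labelled Mir34a_Mye_KO were assigned by the authors to 11 cell types. The median depth was 4787 and 7716 unique molecular identifiers (UMIs, which count captured mRNA molecules) per cell. Macrophages numbered 2208 and 2601, with a median of 7251.5 and 11227 UMIs. In both libraries, the fixed markers of each of the 11 cell types had their highest summed level in the type so labelled, and none of 8 macrophage markers was at 0 in macrophages. Cell by cell, the own marker score was the highest in 70.9% and 79.2% of macrophages, 70.1% and 74.0% of T cells, and 71.3% and 49.3% of epithelial cells. The summed level of the 8 macrophage markers was 50.6 and 58.8 UMIs per 10000 in macrophages, and at most 4.82 and 7.86 in any other cell type. The features that check the labels did not settle the genotypes: the primary transcript of *Mir34a* (mir34apri) was present at 0.0723 (0.0560 to 0.0919) and 0.111 (0.0964 to 0.127) UMIs per 10000 in macrophages, and was thus higher in the library labelled Mir34a_Mye_KO. *Lyz2*, into which *LysM-Cre* is inserted, was at 1.44 and 0.371 in macrophages, the direction known of mice with this insertion. A feature named for Cre joined to *Lyz2* (crenlslyz2) differed in the same direction as *Lyz2*, at 0.164 and 0.0490. Whether its UMIs come from Cre or from *Lyz2* was not tested. A feature named for Cre alone (crenls) had no UMI in any cell type of either library. The libraries are therefore named by their labels, and each direction given here rests on these labels. A total of 96 cell barcodes occurred in both libraries.

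A level is the number of UMIs of a gene per 10000 UMIs of a cell, averaged over cells, with a 95% interval that covers counting error only. Such an interval does not cover the spread between cells. Values for the library labelled Mir34a_F/F always come first, and a positive log2 ratio means a higher level in the library labelled Mir34a_Mye_KO. Since reads come from the 3′ end of mRNAs and are not scaled to length, levels were compared between cells and libraries and not between genes.

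*Axl* mRNA, which encodes a receptor for Gas6, was found in macrophages and fibroblasts. Macrophages held 82.2% (80.8 to 83.4%) and 84.6% (83.8 to 85.4%) of its UMIs. The level in macrophages was 1.16 (1.10 to 1.21) from 2786 UMIs in the library labelled Mir34a_F/F and 1.51 (1.46 to 1.57) from 6216 UMIs in the library labelled Mir34a_Mye_KO. These intervals do not overlap, and the log2 ratio was 0.39 (0.30 to 0.48), a 1.31-fold higher level in the latter. In the 57 and 60 fibroblasts, the levels were 1.93 (1.27 to 2.82) and 1.504 (1.17 to 1.92). These intervals overlap each other, and in the library labelled Mir34a_Mye_KO they overlap with that of macrophages. Each of the 9 other cell types was at 0.154 or lower in both libraries. A UMI of *Axl* was present in 43.6% and 51.8% of macrophages, compared to 4.40% and 8.87% of T cells, which had a median depth of 3548 and 8043 UMIs and serve as the background. Among T cells, *Foxp3*-positive cells had *Axl* at 0.113 (0.0725 to 0.172) and 0.254 (0.207 to 0.309), above the 0.1001 (0.0754 to 0.130) of other *Cd4*-positive cells in the library labelled Mir34a_Mye_KO, so this background is not uniform. After thinning each cell to 1000 UMIs, the shares of cells with *Axl* were 10.6% and 13.2% of macrophages and 1.07% and 1.55% of T cells. Of the 11 cell types, 5 had a lower and 6 a higher level in the library labelled Mir34a_Mye_KO. The higher level was not limited to macrophages. Epithelial cells, which are not targeted by *LysM-Cre*, had *Axl* at 0.0567 and 0.0824, a log2 ratio of 0.54 (0.205 to 0.87). All genes had a median of -0.22 there. Over all T cells, the ratio was 0.022 (-0.33 to 0.38). The part of free mRNA in these levels was not tested.

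Since *Mir34a* is the gene targeted in these mice, 3′ UTRs of the 10 genes were searched for the 7 bases that pair with the seed of miR-34a-5p (bases 2 to 8 of the miRNA). The motif CACTGCC, searched on the mRNA strand, was found in the annotated 3′ UTR of *Axl* and *Tyro3* and in none of the 8 other genes. It is present in 3157 of 21007 genes with an annotated 3′ UTR (15.03%), so a match in 2 of 10 genes is near the background. The mature miRNA (RefSeq, GRCm38.p6, chr4:150068473-150068494, plus strand) is shown with its seed in capitals, and the 2 matches with the bases that pair with this seed in capitals, as the mRNA reads.
miR-34a-5p: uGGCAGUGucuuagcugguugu
Axl: aggacccaagctaggCACTGCCa
Tyro3: cagcctggaactcagCACTGCCc
The stretch of *Axl* (ENSMUSG00000002602.16) lies at chr7:25758611-25758633 on the minus strand of GRCm38 (mm10), and its match begins at base 44 of a 3′ UTR of 1389 bases. The stretch of *Tyro3* (ENSMUSG00000027298.17) lies at chr2:119817426-119817448 on the plus strand, where the match begins at base 407 of 1070 bases. The base after the match is an A in *Axl*, the letter that would face base 1 of the miRNA, and a C in *Tyro3*. A match describes these letters only, and binding of the miRNA was not measured.

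*Mertk*, the TAM receptor best known for clearance of apoptotic cells by macrophages, had its highest level in macrophages of both libraries. It was at 1.14 (1.08 to 1.20) and 1.12 (1.08 to 1.17), with a log2 ratio of -0.022 (-0.12 to 0.072). The intervals overlap, from 2621 and 5025 UMIs. Endothelial cells and fibroblasts followed, with 0.201 (0.0988 to 0.398) and 0.312 (0.179 to 0.526) in endothelial cells and 0.209 (0.0578 to 0.603) and 0.241 (0.143 to 0.429) in fibroblasts, whose intervals overlap. Epithelial cells had a low level of 0.135 (0.123 to 0.148) and 0.157 (0.144 to 0.171), yet contributed 27.5% and 20.3% of the UMIs of *Mertk*, because 11614 and 9865 cells were epithelial. Among them, the level was higher in *Krt20*-positive cells without *Lgr5* (0.181 and 0.188) than in *Lgr5*-positive cells (0.0739 and 0.121). The largest group, epithelial cells without *Lgr5*, *Krt20* and *Mki67*, had 0.130 and 0.158 (0.133 to 0.187). In the library labelled Mir34a_Mye_KO, its interval overlaps with those of *Krt20*-positive (0.171 to 0.2075) and *Lgr5*-positive cells (0.0997 to 0.146). T cells had 0.0589 and 0.0608.

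*Tyro3*, the remaining TAM receptor, was barely detected, with 437 and 351 UMIs in the libraries as a whole. Epithelial cells held 84.9% (81.2 to 88.1%) and 78.1% (73.4 to 82.3%) of these, at a level of 0.0397 (0.0342 to 0.0459) and 0.0235 (0.0200 to 0.0275). The level in epithelial cells was lower in the library labelled Mir34a_Mye_KO, with a log2 ratio of -0.76 (-1.06 to -0.46). Genes with a mean of at least 0.1, which *Tyro3* did not reach, had a median of -0.22 there. By group, the ratio of *Tyro3* was -0.046 (-0.69 to 0.60) in *Lgr5*-positive and -0.70 (-1.13 to -0.27) in *Krt20*-positive cells. It was -0.48 (-1.15 to 0.19) in *Mki67*-positive cells and -1.41 (-2.05 to -0.78) in cells with none of these markers. The high value of *Tyro3* in endothelial cells of the library labelled Mir34a_F/F comes from 1 UMI. Macrophages had 14 UMIs of *Tyro3* in each library, and their levels of 0.00963 (0.00412 to 0.0189) and 0.00444 (0.00142 to 0.0105) have overlapping intervals. Thus, a difference of *Tyro3* in macrophages was not detectable at this depth.

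The heat map of levels by cell type shows where the 10 mRNAs were found.

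**Figure D1:**
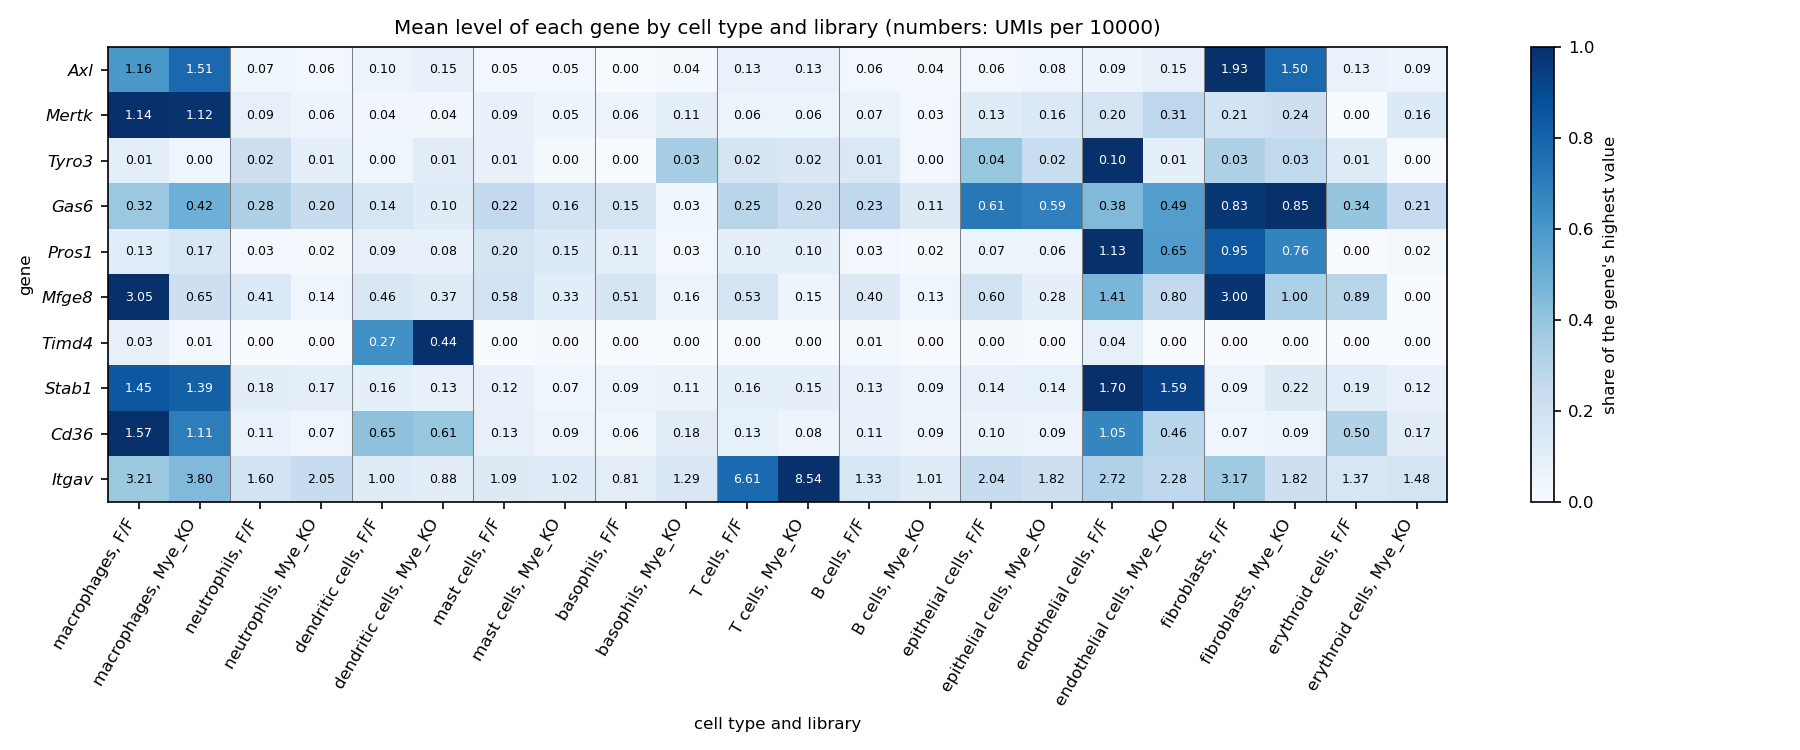
Mean level of the 10 genes (rows) in 11 cell types of the libraries labelled Mir34a_F/F and Mir34a_Mye_KO (columns), printed in UMIs per 10000, with shades that give the share of the highest value of each gene. *Mertk* and *Cd36* are darkest in macrophages, *Stab1* in endothelial cells and macrophages, *Timd4* in dendritic cells and *Itgav* in T cells, and every value of *Mfge8* is lower in the right column of its pair.

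Both ligands of the TAM receptors had their highest level outside macrophages. *Gas6* had its highest level in fibroblasts, at 0.828 (0.445 to 1.44) and 0.853 (0.673 to 1.10), followed by epithelial cells at 0.614 (0.589 to 0.639) and 0.590 (0.565 to 0.615). Intervals of fibroblasts and epithelial cells overlap in the library labelled Mir34a_F/F and not in the library labelled Mir34a_Mye_KO. Most UMIs of *Gas6* were in epithelial cells, with 79.7% (78.7 to 80.6%) and 67.2% (66.2 to 68.3%). Among epithelial cells, *Gas6* was higher in those with *Mki67* and neither *Lgr5* nor *Krt20* (0.716 and 0.733) than in *Lgr5*-positive (0.476 and 0.552) and *Krt20*-positive cells (0.546 and 0.535). The largest group, epithelial cells with none of these markers, had 0.695 (0.646 to 0.747) and 0.604 (0.560 to 0.651), which in the library labelled Mir34a_F/F overlaps with the *Mki67*-positive cells (0.655 to 0.782). In macrophages, *Gas6* was at 0.324 (0.288 to 0.362) and 0.422 (0.386 to 0.460), a log2 ratio of 0.38 (0.18 to 0.59). The background, taken from T cells, was at 0.249 (0.218 to 0.284) and 0.196 (0.173 to 0.222), that is 77.0% and 46.6% of the level in macrophages. B cells had 70.6% and 26.4% of it. Subtraction of the level in T cells raised the log2 ratio to 1.60, so its size rests on the background taken. Whether free mRNA of epithelial cells gives this background was not tested.

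*Pros1*, which encodes protein S and also acts in coagulation, was highest in endothelial cells of the library labelled Mir34a_F/F, at 1.13 (0.807 to 1.54), and was at 0.648 (0.452 to 0.918) in those of the library labelled Mir34a_Mye_KO. Fibroblasts had 0.9503 (0.526 to 1.60) and 0.764 (0.571 to 1.03), so that these cell types were not separated in either library. By UMIs, macrophages held 20.4% (18.2 to 22.8%) and 35.1% (32.8 to 37.4%) of *Pros1*, and epithelial cells 52.7% and 31.6%. The order after them differed between the libraries: mast cells had 0.195 (0.139 to 0.268) and 0.150 (0.121 to 0.184), and macrophages 0.128 (0.110 to 0.148) and 0.173 (0.153 to 0.195), with overlapping intervals. For macrophages, the log2 ratio was 0.44 (0.16 to 0.71). B cells, taken as the background for *Pros1*, had 0.0325 and 0.0175, or 25.5% and 10.1% of the level in macrophages. T cells had 0.104 and 0.0985, or 81.4% and 56.9%, and a subtraction of their level was not made for *Pros1*, so the ratio may depend on the background taken. In endothelial cells, the difference was in the other direction, with a log2 ratio of -0.80 (-1.45 to -0.15) from 63 and 69 UMIs.

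*Mfge8* differed most between the libraries. In macrophages its level was 3.05 (2.97 to 3.14) from 9994 UMIs and 0.647 (0.600 to 0.697) from 2120 UMIs, a log2 ratio of -2.24 (-2.35 to -2.12) or a 4.71-fold lower level in the library labelled Mir34a_Mye_KO. With UMIs summed over cells, in which deep cells weigh more, the log2 ratio was -3.01. A UMI was present in 35.0% and 21.7% of macrophages and, after thinning to 1000 UMIs, in 11.7% (10.4 to 13.1%) and 3.93% (3.22 to 4.75%). In T cells, these shares were 16.7% and 11.6% and, after thinning, 4.79% and 1.29%. The level was lower in the library labelled Mir34a_Mye_KO in 11 of 11 cell types. However, the interval of the log2 ratio includes 0 in dendritic cells (-0.32, -0.75 to 0.12), and the levels of basophils, from 7 and 9 UMIs, and of erythroid cells have overlapping intervals. Within dendritic cells, the ratio was -1.06 (-1.69 to -0.44) in *Ccr7*-positive cells and -1.40 (-2.59 to -0.21) in cells with *Cd209a*. It was 0.33 (-0.56 to 1.22) in cells with *Clec9a* or *Xcr1* and 0.58 (-0.38 to 1.55) in those with none of the markers. Fibroblasts had 3.00 (2.18 to 4.03) and 1.001 (0.742 to 1.34), endothelial cells 1.41 (0.973 to 1.96) and 0.796 (0.540 to 1.14), and epithelial cells 0.595 (0.568 to 0.624) and 0.276 (0.257 to 0.295). T cells are not targeted by *LysM-Cre*, and were at 0.527 (0.477 to 0.581) and 0.154 (0.135 to 0.176). These levels are 17.3% and 23.8% of those in macrophages. B cells had 0.397 and 0.126, and no UMI was found in the 30 erythroid cells of the library labelled Mir34a_Mye_KO, which allows a level of up to 0.599. The part of free mRNA in the levels of these other cell types was not tested. *Mfge8* thus ranked first among the cell types in macrophages of the library labelled Mir34a_F/F, next to fibroblasts with an overlapping interval. In the library labelled Mir34a_Mye_KO, macrophages came after fibroblasts, with separate intervals, and after endothelial cells, with overlapping ones.

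The *Mfge8* mRNA of macrophages was concentrated in few cells. Macrophages with 10 or more UMIs of *Mfge8*, a limit chosen after these values were seen, numbered 166 of 2208 (7.52%, exact binomial interval 6.45 to 8.70%) and 28 of 2601 (1.08%, 0.717 to 1.55%). They held 88.3% and 53.4% of the *Mfge8* UMIs of macrophages, with up to 538 and 226 UMIs in 1 cell. At an equal depth of 5000 UMIs, 8.09% (6.77 to 9.57%) of 1521 cells and 1.03% (0.611 to 1.62%) of 1749 cells had 5 or more UMIs. In the other macrophages, *Mfge8* was at 0.798 and 0.434. These values are a description only, since the cells were removed by the UMIs that are compared, and 10 UMIs are a lower level in the deeper library. The macrophages rich in *Mfge8* were deep, with a median of 16845 and 26921.5 UMIs compared to 6812.5 and 11121 UMIs in the others. Their level of the macrophage receptor gene *Csf1r* was 5.36 and 7.83, compared to 4.98 and 5.65 in the others. Epithelial *Epcam* was at 1.91 and 1.505 in them, compared to 3.28 and 2.79 in the others, and T-cell *Cd3e* was at 0.0571 and 0.0502, compared to 0.133 and 0.0755. *Epcam* and *Cd3e* were therefore not higher in the cells with much *Mfge8*. Markers of fibroblasts and endothelial cells, which also had *Mfge8*, were not compared.

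Other genes were ranked by their ratio to the remaining macrophages, taking the smaller ratio of both libraries. *Gpnmb*, a glycoprotein of phagosomes and lysosomes, was at 8.67 compared to 0.839 in the others in the library labelled Mir34a_F/F, and at 4.45 compared to 0.512 in the library labelled Mir34a_Mye_KO. *Mmp12*, the macrophage elastase, was at 35.0 compared to 6.08 and at 38.8 compared to 4.37. *Ctsd*, a lysosomal protease, was at 38.5 compared to 7.45 and at 29.3 compared to 6.26. *Lpl* (lipoprotein lipase), *Atp6v0d2* (a subunit of the vacuolar proton pump), *Fabp5* (a fatty acid binding protein), *Ctsl* and *Cd36* were also among the leading genes. *Trem2*, a lipid-sensing receptor, was at 3.48 compared to 0.956 and at 2.51 compared to 0.858, whereas *Ly6c2*, a monocyte marker, was at 0.0588 compared to 1.38 and at 0.0143 compared to 1.08. *Axl* was at 2.11 compared to 1.08 and at 2.50 compared to 1.503, and *Stab1* was at 2.79 compared to 1.34 and at 2.69 compared to 1.38. *Mrc1*, a marker of M2-like macrophages, was lower in them, at 1.04 compared to 1.85 and at 1.36 compared to 2.89. *Arg1*, another such marker, was higher, at 9.08 compared to 4.45 and at 5.05 compared to 2.09, and *Nos2*, a marker of M1-like macrophages, was lower, at 0.288 compared to 0.472 and at 0.162 compared to 0.286. The genes were ranked on the same cells and are given as a description of them. Macrophages rich in *Mfge8* were deeper than the others, and these genes were not compared at equal depth. Over all macrophages, *Axl* was at 0.635 and 0.906 below 2000 UMIs and at 1.65 and 2.14 at 16000 or more UMIs.

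*Cd36*, which takes up oxidised lipids and fatty acids, was highest in macrophages of both libraries, at 1.57 (1.5 to 1.65) and 1.11 (1.06 to 1.15). The log2 ratio was -0.51 (-0.60 to -0.42), a 1.42-fold lower level in the library labelled Mir34a_Mye_KO. Endothelial cells had 1.05 (0.737 to 1.46) and 0.461 (0.245 to 0.781), and dendritic cells had 0.647 (0.549 to 0.760) and 0.615 (0.536 to 0.703). The order of endothelial and dendritic cells thus changed between the libraries, but their intervals overlap in both. T cells had 0.132 and 0.0771. A UMI was present in 29.8% and 28.0% of macrophages and in 3.89% and 4.002% of T cells. Unlike *Mfge8*, *Cd36* was at 10 or more UMIs in a similar share of macrophages, in 5.39% (4.49 to 6.42%) and 5.04% (4.23 to 5.95%). However, 10 UMIs are a lower level in the deeper library. In macrophages of 16000 or more UMIs, such cells were 71 of 295 and 105 of 933. Between 8000 and 16000 UMIs they were 42 of 691 and 23 of 617, and between 4000 and 8000 UMIs 5 of 692 and 3 of 318. The similar share therefore did not hold in the deeper cells. Of these *Cd36*-rich macrophages, 51 of 119 (42.9%) in the library labelled Mir34a_F/F but 9 of 131 (6.87%) in the library labelled Mir34a_Mye_KO also had 10 or more UMIs of *Mfge8*. Conversely, 30.7% and 32.1% of macrophages with 10 or more UMIs of *Mfge8* had as many of *Cd36*, and thus the smaller overlap goes along with the smaller number of macrophages rich in *Mfge8*, 166 and 28. Within dendritic cells, *Cd36* was at 1.36 (1.02 to 1.77) and 1.18 (0.975 to 1.42) in cells with *Clec9a* or *Xcr1*, markers of conventional type 1 dendritic cells, and at 0.648 (0.540 to 0.778) and 0.489 (0.404 to 0.588) in *Ccr7*-positive cells, a marker of migratory dendritic cells.

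*Mfge8* and *Cd36* were compared in cells of similar depth, in bins that were added after the values were seen. In macrophages with 16000 or more UMIs (295 and 933 cells), *Mfge8* was at 11.1 (10.9 to 11.4) and 0.588 (0.559 to 0.620), and *Cd36* at 3.36 (3.22 to 3.51) and 1.67 (1.62 to 1.73). Between 8000 and 16000 UMIs (691 and 617 cells), *Mfge8* was at 2.86 (2.75 to 2.98) and 0.419 (0.373 to 0.468). Between 4000 and 8000 UMIs (692 and 318 cells), however, *Mfge8* was at 0.651 (0.573 to 0.737) and 0.723 (0.609 to 0.854), and *Cd36* was higher in the library labelled Mir34a_Mye_KO, at 0.822 (0.734 to 0.916) and 1.10 (0.952 to 1.27). Between 2000 and 4000 UMIs (310 and 484 cells), *Mfge8* was at 2.31 (2.01 to 2.65) and 0.935 (0.768 to 1.13), and *Cd36* at 1.41 (1.17 to 1.68) and 0.418 (0.315 to 0.545). The differences were therefore not uniform over macrophages, and whether cells of equal depth are of the same kind in both libraries was not tested. *Axl* was higher in the library labelled Mir34a_Mye_KO in 4 of 5 bins and lower between 8000 and 16000 UMIs, at 1.72 (1.63 to 1.82) and 1.23 (1.15 to 1.31). Intervals of *Axl* overlap below 2000 UMIs. *Itgav* was higher in this library between 4000 and 8000 UMIs, at 2.57 (2.41 to 2.73) and 4.86 (4.54 to 5.20), and at 16000 or more UMIs, and lower below 4000 UMIs.

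**Figure D2:**
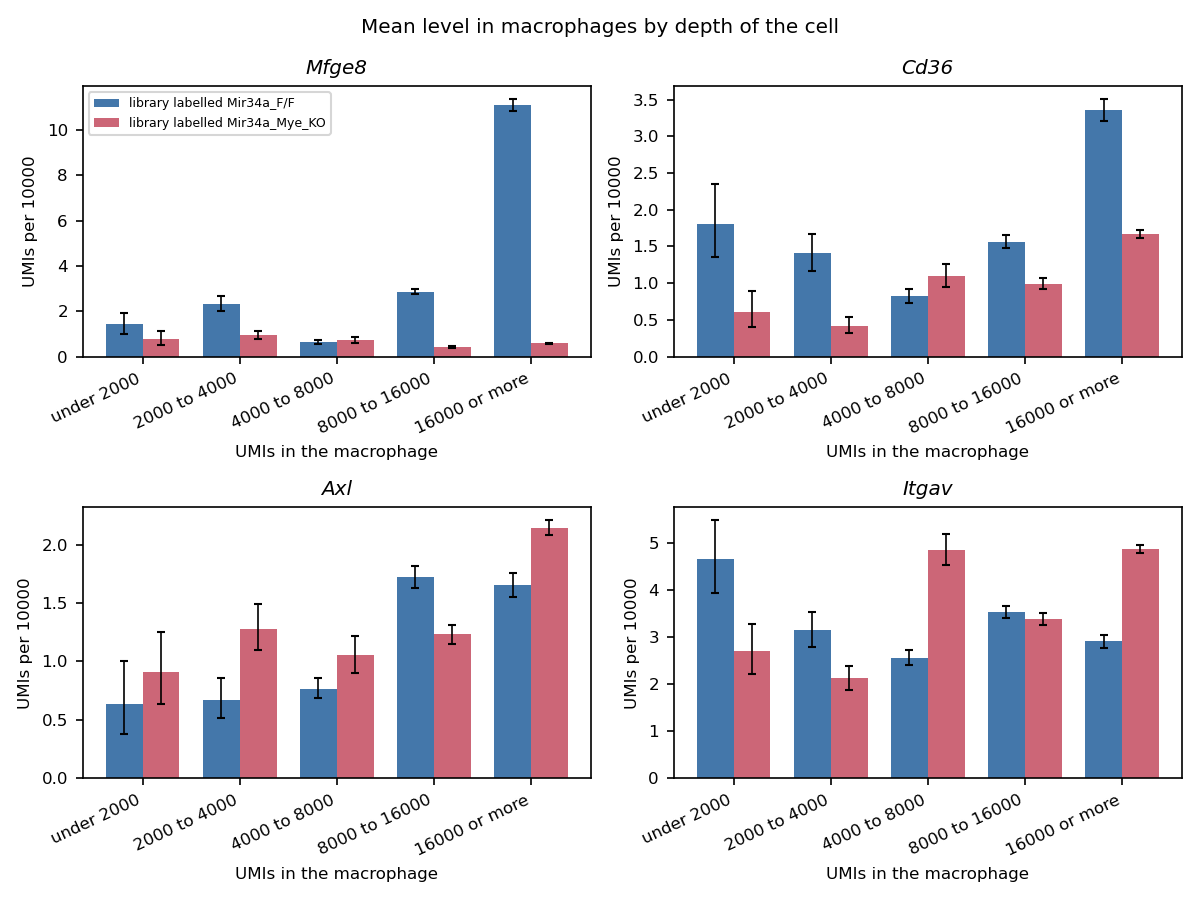
Mean level (UMIs per 10000) of *Mfge8*, *Cd36*, *Axl* and *Itgav* in macrophages of both libraries, grouped by the UMIs of the cell, with 95% counting intervals as error bars. *Mfge8* differs most at 16000 or more UMIs, at 11.1 and 0.588, and its bars have overlapping intervals between 4000 and 8000 UMIs.

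*Stab1*, a scavenger receptor of alternatively activated macrophages and sinusoidal endothelium, was at 1.70 (1.30 to 2.20) and 1.59 (1.24 to 2.01) in endothelial cells and at 1.45 (1.38 to 1.51) and 1.39 (1.33 to 1.45) in macrophages. Intervals of these cell types overlap, and the other 9 cell types were at 0.218 or lower. The log2 ratio in macrophages was -0.057 (-0.15 to 0.032), so the libraries were not separated.

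*Timd4*, which marks long-lived resident macrophages of the gut, was almost absent from macrophages, with 25 and 24 UMIs at a level of 0.0342 (0.0211 to 0.0516) and 0.0107 (0.00500 to 0.0196). Of the 25 UMIs, 18 were in 0.25% of the 800 macrophages without *Mrc1*, *Ly6c2* and *Nos2*. The log2 ratio of -1.68 (-2.79 to -0.56) was reversed to 0.75 in macrophages whose markers match their label, so no direction is given. Instead, dendritic cells held 60.2% (50.5 to 69.3%) and 79.3% (73.4 to 84.4%) of the 113 and 227 UMIs. Their level was 0.275 (0.193 to 0.378) and 0.436 (0.355 to 0.530), a log2 ratio of 0.67 (0.12 to 1.22). In *Ccr7*-positive dendritic cells, *Timd4* was at 0.312 (0.223 to 0.429) in the library labelled Mir34a_F/F and at 0.745 (0.599 to 0.912) in the library labelled Mir34a_Mye_KO, with a log2 ratio of 1.25 (0.72 to 1.79). These UMIs were in few cells, 5.92% of 152 and 10.9% of 192. Over all dendritic cells, 5.48% (3.33 to 8.42%) and 7.89% (5.53 to 10.8%) had a UMI, with overlapping intervals. Cells with *Clec9a* or *Xcr1* had 0.512 (0.236 to 0.921) and 0.278 (0.131 to 0.490), with overlapping intervals. *Timd4* was at 0.0731 and 0.0671 in dendritic cells with *Cd209a* and none of these markers.

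*Itgav* was found in each of the 11 cell types and was highest in T cells, at 6.61 (6.42 to 6.79) and 8.54 (8.39 to 8.69). Macrophages followed with 3.21 (3.09 to 3.32) and 3.80 (3.71 to 3.90), which in the library labelled Mir34a_F/F overlaps with fibroblasts at 3.17 (2.27 to 4.30). The level was higher in the library labelled Mir34a_Mye_KO in T cells (log2 ratio 0.37, 0.32 to 0.42), neutrophils (0.36, 0.21 to 0.51) and macrophages (0.25, 0.18 to 0.31). In basophils, with 17 and 52 UMIs, the ratio was 0.67 (-0.19 to 1.53), with an interval that includes 0. The level was lower in B cells (-0.39, -0.59 to -0.20), where the median of all genes was -0.32, and in fibroblasts (-0.80, -1.32 to -0.27). The ratio of -0.17 (-0.21 to -0.12) in epithelial cells is close to the median of all genes in this cell type, which was -0.22. The intervals of T cells and neutrophils overlap, and T cells are not targeted by *LysM-Cre*. The cause of the differences of *Itgav* was not tested.

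Among T cells, *Itgav* was most abundant in *Foxp3*-positive regulatory T cells (465 and 598 cells), at 12.4 (11.8 to 13.0) and 15.2 (14.8 to 15.6). It was at 5.05 (4.56 to 5.58) and 5.97 (5.60 to 6.36) in cells with *Trdc*, a marker of γδ T cells, at 4.04 (3.78 to 4.31) and 5.23 (5.04 to 5.43) in the other *Cd4*-positive cells, and at 3.23 (2.83 to 3.67) and 3.82 (3.55 to 4.12) in *Cd8a*-positive cells. *Itgb8*, which encodes the β8 subunit that pairs with αv to activate TGF-β, was also highest in the *Foxp3*-positive cells, at 1.69 (1.48 to 1.92) and 2.56 (2.41 to 2.71), compared to 0.123 (0.0602 to 0.229) and 0.198 (0.134 to 0.285) in *Cd8a*-positive cells. T cells with none of these markers had *Itgav* at 6.40 (6.13 to 6.68) and 8.26 (7.96 to 8.57). Each of the 5 groups of T cells had a higher level of *Itgav* in the library labelled Mir34a_Mye_KO, with log2 ratios between 0.24 and 0.37. This split of T cells was added after the high level of *Itgav* had been seen. Of the other β subunits, *Itgb5* was at 1.28 and 1.47 in macrophages and 0.140 and 0.155 in T cells, whereas *Itgb3* was at 0.0443 and 0.0619 in macrophages and 0.581 and 0.792 in T cells. *Itgb6*, the epithelial partner, was at 1.10 and 0.853 in epithelial cells. *Itgb1*, a β subunit that also pairs with αv, was found in each of these cell types, at 2.38 and 2.20 in macrophages, 1.52 and 1.44 in T cells and 2.22 and 1.75 in epithelial cells.

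**Figure D3:**
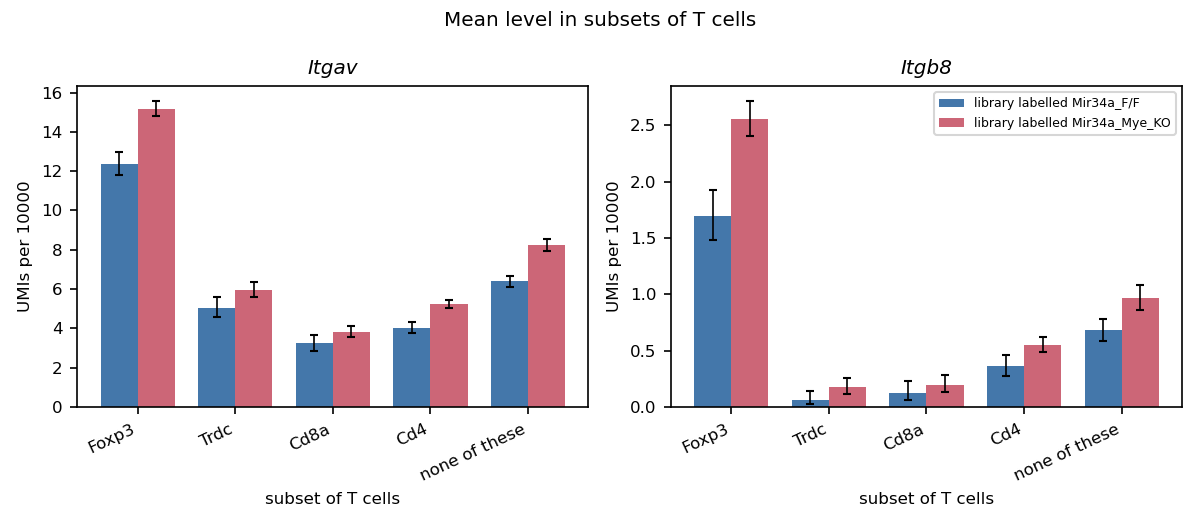
Mean level (UMIs per 10000) of *Itgav* and *Itgb8* in T cells of both libraries, split by the first of the markers *Foxp3*, *Trdc*, *Cd8a* and *Cd4* that had a UMI, with 95% counting intervals. *Foxp3*-positive cells have the highest bars of both genes, at 12.4 and 15.2 for *Itgav* and 1.69 and 2.56 for *Itgb8*.

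To place the ratios in macrophages, all 8593 genes with a mean of at least 0.1 UMIs per 10000 over both libraries and at least 10 UMIs in each were compared in the same way. A level at least 1.5-fold higher in the library labelled Mir34a_Mye_KO was found for 1.69% and a level at least 1.5-fold lower for 3.18% of these genes. With totals without mitochondrial, immunoglobulin and rRNA-like genes, this balance was reversed, with 2.64% higher and 1.79% lower. Of the 10 genes, 8 passed this filter (*Tyro3* and *Timd4* did not), none was at least 1.5-fold higher and 1, *Mfge8*, was lower. The median log2 ratio was 0.11 over the 8 genes and -0.055 over all genes. The middle 95% of all genes lay between -0.62 and 0.49, and *Axl*, *Gas6*, *Pros1*, *Cd36* and *Itgav* lay within this range although their counting intervals exclude 0. In T cells, 1.66% of 8928 genes were higher and 7.76% lower, and *Mfge8* and *Cd36* were lower among 7 genes. In neutrophils, 5.4% were higher and 11.4% lower, and *Mfge8* was lower among 4 genes. Dendritic cells had 4.97% of genes higher and 6.49% lower, with *Timd4* higher among 7 genes, and epithelial cells had 1.34% higher and 4.04% lower, with *Mfge8* lower among 5 genes.

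**Figure D4:**
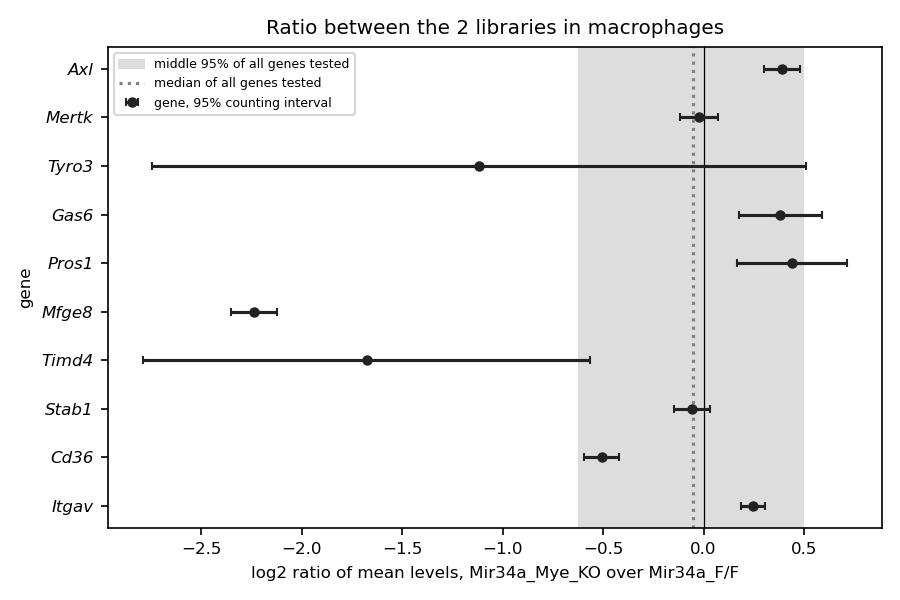
Log2 ratio of the mean level in macrophages (library labelled Mir34a_Mye_KO over library labelled Mir34a_F/F) for the 10 genes, with 95% counting intervals as bars, the middle 95% of all genes tested in grey and their median as a dotted line. *Mfge8* at -2.24 lies outside the grey range with its whole interval, and *Tyro3* and *Timd4* have wide intervals from 14 and 25 UMIs or fewer per library.

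Next, macrophages were split by *Mrc1* (which encodes CD206, a marker of M2-like macrophages), *Ly6c2* (a marker of recently recruited monocytes) and *Nos2* (inducible nitric oxide synthase, a marker of M1-like macrophages). *Mrc1*-positive cells numbered 833 and 1223, *Ly6c2*-positive cells without *Mrc1* 409 and 363, and *Nos2*-positive cells without both 166 and 121. The receptors *Axl*, *Mertk* and *Stab1* were highest in *Mrc1*-positive and lowest in *Ly6c2*-positive cells. *Axl* was at 1.87 (1.77 to 1.97) and 2.17 (2.09 to 2.25) in the former and at 0.246 (0.188 to 0.316) and 0.289 (0.235 to 0.352) in the latter. *Mertk* was at 1.97 (1.86 to 2.09) and 1.81 (1.74 to 1.88) compared to 0.115 (0.0818 to 0.159) and 0.189 (0.149 to 0.239). *Stab1* was at 2.28 (2.16 to 2.41) and 2.10 (2.02 to 2.18) compared to 0.376 (0.307 to 0.456) and 0.391 (0.316 to 0.478). *Gas6* followed this order in both libraries, with 0.464 and 0.578 in *Mrc1*-positive and 0.158 and 0.129 in *Ly6c2*-positive cells. *Pros1* did not, since it was at 0.170 (0.125 to 0.226) and 0.174 (0.138 to 0.217) in *Ly6c2*-positive cells and at 0.146 (0.119 to 0.178) and 0.205 (0.179 to 0.233) in *Mrc1*-positive cells.

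Between the libraries, *Axl* had a higher level in each of the 4 groups of macrophages of the library labelled Mir34a_Mye_KO, with log2 ratios of 0.21 (0.12 to 0.30) in *Mrc1*-positive, 0.23 (-0.23 to 0.69) in *Ly6c2*-positive, 0.55 (0.088 to 1.02) in *Nos2*-positive and 0.29 (0.075 to 0.51) in the remaining cells. The ratio in *Mrc1*-positive cells was smaller than the 0.39 over all macrophages. *Mrc1*-positive cells, which had the highest level, were 833 of 2208 macrophages in one library and 1223 of 2601 in the other. Whether their share plays a part in the ratio over all macrophages was not tested. *Mertk* was slightly lower in *Mrc1*-positive cells (-0.12, -0.22 to -0.025) and lower in the remaining cells (-0.46, -0.72 to -0.20), but higher in *Ly6c2*-positive cells (0.72, 0.16 to 1.28). *Stab1* was lower in *Mrc1*-positive (-0.12, -0.22 to -0.029) and in the remaining cells (-0.39, -0.61 to -0.16). Its intervals include 0 in *Ly6c2*-positive (0.058, -0.35 to 0.46) and *Nos2*-positive cells (-0.61, -1.29 to 0.073). *Mfge8* was lower in each of the 4 groups, with levels of 4.53 (4.40 to 4.66) and 0.540 (0.493 to 0.590) in *Mrc1*-positive cells and 3.54 (3.22 to 3.89) and 0.800 (0.608 to 1.05) in *Nos2*-positive cells. In the remaining cells it was at 2.73 (2.56 to 2.91) and 0.947 (0.833 to 1.07). *Mrc1*-positive cells were thus above the remaining cells in the library labelled Mir34a_F/F and below them in the library labelled Mir34a_Mye_KO. *Cd36* was lower in 3 of the 4 groups, and in *Ly6c2*-positive cells it was at 0.254 (0.197 to 0.321) and 0.265 (0.219 to 0.318). A marker was called by a single UMI, which is found more easily in deep cells. *Mrc1*-positive cells had a median depth of 10915 and 18462 UMIs, compared to 4392 and 3589.5 UMIs in the remaining cells.

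**Figure D5:**
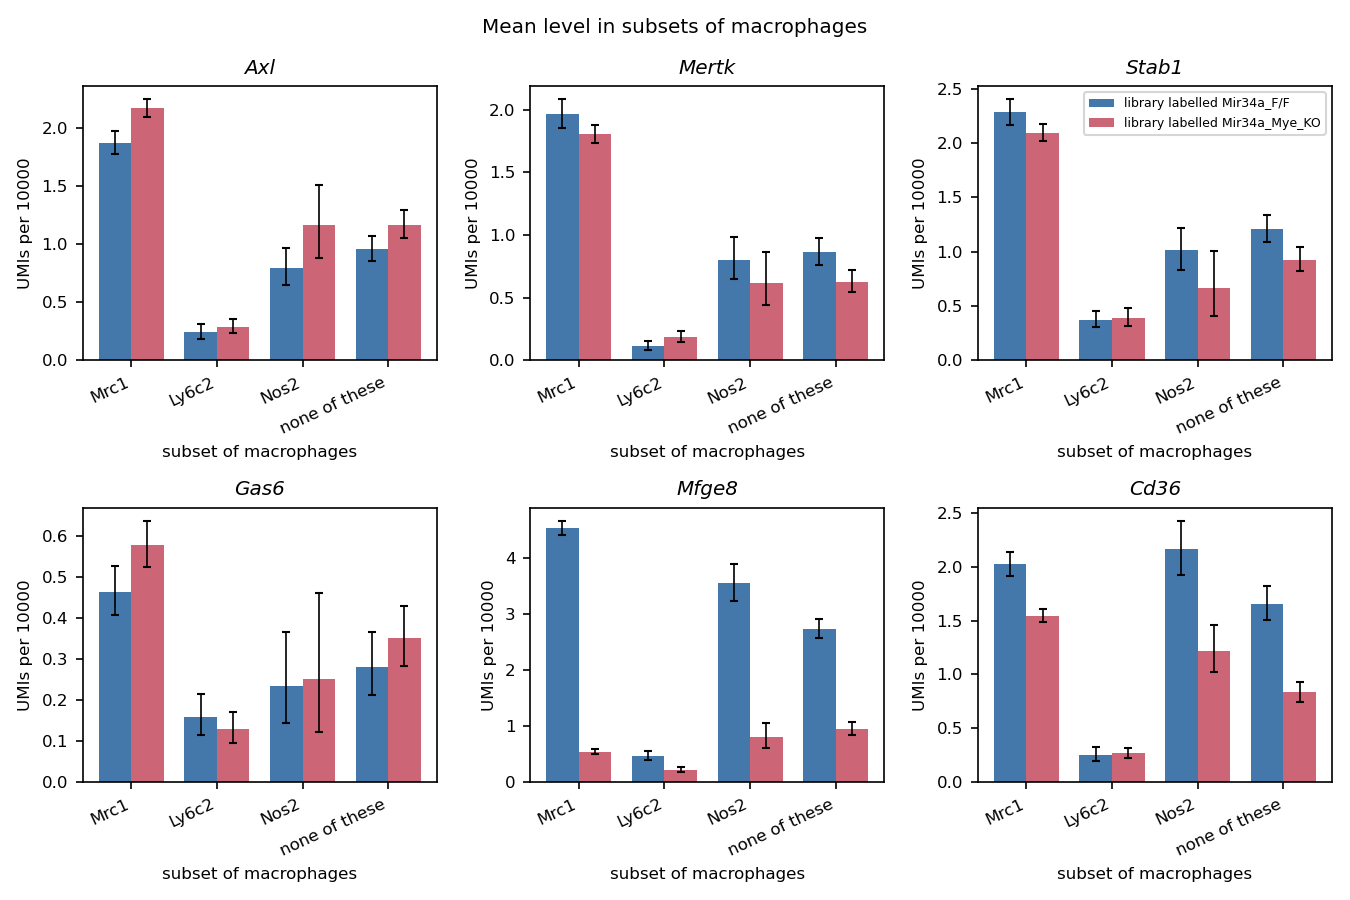
Mean level (UMIs per 10000) of *Axl*, *Mertk*, *Stab1*, *Gas6*, *Mfge8* and *Cd36* in macrophages of both libraries with *Mrc1*, with *Ly6c2* and no *Mrc1*, with *Nos2* and neither of these, and with none, with 95% counting intervals. The bars of all 6 genes are lowest in *Ly6c2*-positive cells, and the libraries differ most for *Mfge8*, at 4.53 and 0.540 in *Mrc1*-positive cells.

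In single macrophages thinned to 5000 UMIs, the mRNAs of the receptors were found together. Thinning left out 687 and 852 macrophages with fewer than 5000 UMIs, so the shares describe the 1521 and 1749 deeper cells. Of macrophages with *Axl*, 46.0% and 43.2% had *Mertk*, compared to 22.8% and 22.04% of those without *Axl*. *Stab1* was present in 57.0% and 53.3% of macrophages with *Axl* and in 28.6% and 27.0% of those without. The ligand *Gas6* was present in 13.7% and 12.8% of macrophages with and without *Axl* in the library labelled Mir34a_F/F and in 21.1% and 10.9% in the library labelled Mir34a_Mye_KO. *Pros1* was not found more often with *Axl* in either library, in 5.35% compared to 5.96% and in 7.16% compared to 9.34%. These shares are descriptions of cells from 1 library each.

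Across the 22 combinations of cell type and library, the mRNAs most like each gene were determined by Pearson's r among 14272 genes. The points share libraries, depth and few cells in some types, and the values are given as a description. *Axl* was most like *Lpl* (r = 0.956), *Olfml3* and *Adamdec1*, and *Cmklr1* and *Tfec* (0.893) were among those most like *Mertk*. *Gas6* was most like *Cachd1* (0.917), *Raph1* and *Rin2*. The basement membrane collagens *Col15a1* and *Col4a1* (0.928) were among those most like *Pros1*. *Stab1* was most like *Pald1* (0.896), *Fam167b* and *Stard8*, and *Cd36* most like *Ms4a6d* (0.929), *Cxcl9* and *Rasa4*. *Timd4* was most like *Klri1* (0.987), *Cd209a* and *Havcr1*, and *Itgav* most like *Maf* (0.910), *Gm15655* and *Fam171b*. *Mfge8* had no close match, with *Tceal8* at 0.843, *Tspan31* and *Morf4l2*, and neither had the sparse *Tyro3*, with *Acad12* at 0.866, *Nlrp6* and *Pcdhb20*. Between the 10 genes, the closest patterns were those of *Stab1* and *Cd36* (0.784) and of *Stab1* and *Mertk* (0.755), whereas *Axl* and *Mertk* had 0.712.

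Finally, 80 further genes of the pathway in 9 lists were examined in macrophages, of which 67 passed the same filter on mean and UMIs. None was at least 1.5-fold higher and 2 were at least 1.5-fold lower in the library labelled Mir34a_Mye_KO, beside 1.69% and 3.18% of all genes. One of these was *Lrp1*, an engulfment receptor, at 2.84 and 1.72 (log2 ratio -0.72, -0.79 to -0.65). The other was *Thbs1*, a bridging protein also known as thrombospondin 1, which is bound by *Cd36*, at 20.0 and 11.6 (-0.78, -0.81 to -0.76). *Trem2*, at 1.15 and 0.876 (-0.39, -0.49 to -0.29), was the next lower among well-detected genes. Among the largest ratios of well-detected genes in the other direction were those of *Elmo1*, an adaptor of the engulfment machinery, at 2.73 and 3.59 (0.40, 0.33 to 0.46), and *Ano6*, a phospholipid scramblase, at 0.815 and 1.03 (0.33, 0.21 to 0.45). The median log2 ratio over the 67 genes was -0.014.

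By list, 9 of 14 phosphatidylserine receptors and 8 of 8 bridging proteins had a value, and each of these lists had 1 gene that was lower by 1.5-fold and a median log2 ratio of -0.17 and -0.21. Within the bridging proteins, the C1q chains *C1qa*, *C1qb* and *C1qc* had log2 ratios of 0.30, 0.27 and 0.18, in contrast to *Lgals3* with -0.37 and *Anxa1* with -0.38. No gene passed 1.5-fold among 4 of 5 integrin partners (median 0.043), 5 of 6 genes of γ-carboxylation and shedding (-0.051), 10 of 11 of the engulfment machinery (0.083), 12 of 13 of digestion and lipid handling (-0.096), 8 of 9 targets of TAM signalling (0.19), 6 of 8 of exposure of eat-me signals (0.15) and 5 of 6 of do-not-eat-me signals (-0.23). *Il10*, which is known to be induced during engulfment, was at 0.441 and 0.589 (0.42, 0.26 to 0.58), and *Pparg* and *Nr1h3*, lipid-sensing nuclear receptors, had ratios of 0.49 (0.27 to 0.70) and -0.40 (-0.62 to -0.17). These last genes, and those named for C1q, *Lgals3* and *Anxa1*, were singled out after their values were seen.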

How the data were processed

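Single-cell RNA sequencing of CACs, with 1 library per genotype, was performed by the authors with the 10x 3′ v.3.1 kit. As stated by the authors, UMIs were obtained with Cell Ranger 7.2.0 and mm10, cells with under 25% mitochondrial content were kept, doublets were removed with Scrublet and values were normalized with Seurat. The deposited values are on a natural log scale (UMIs of a gene, scaled to 10000 UMIs per cell, plus 1), with an annotation by the authors of the library and type of each cell. In the table, 2470 and 4130 cells were nevertheless at or over 25% mitochondrial content, among them 30 and 90 macrophages. The name LYS_CRE in the annotation was matched to the sample titled with LysM CRE, and Flox to the other.

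The log was undone, and dividing by the smallest value of each cell returned UMI counts that were whole to within 1.5e-10. The libraries held 147109016 and 193133086 UMIs. Levels are means over cells of UMIs per 10000 with a gamma interval, ratios have delta-method intervals and were given from at least 10 UMIs per library, and shares have exact binomial intervals, each at 95% and for counting error only. With 1 library per genotype, no p-value was computed. Cells were thinned to 1000 UMIs for shares and 5000 UMIs for co-detection. The motif search used 3′ UTRs of GENCODE M21 (GRCm38), with the miRNA from RefSeq, and 10 of 10 genes had an annotated 3′ UTR. The intervals of levels and ratios were tested on simulated counts in which each gene had the same level in every macrophage of a library. This is what the intervals assume, so the simulation could not show how they hold for mRNAs concentrated in few cells, such as *Mfge8*.

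The 10 genes and the lists were chosen with earlier results of these data known. Named are the 10 genes, the 3 pathway genes that differed most in each direction (of those found in 25% or more of macrophages at a level of 0.5 or more in 1 library), the 3 most similar genes of each of the 10 genes, and markers of subsets and libraries. Of these, 3 genes are not reported here. The split of T cells, the macrophages rich in *Mfge8* or *Cd36* and their genes, and the bins of depth were added with the values known. The alternatives were UMIs summed over cells, thinned cells, cells of 4000 to 8000 UMIs, cells with at least 500 genes and under 10% mitochondrial content, subtraction of the level in T cells (B cells for *Pros1*), cells whose markers match their label, totals without mitochondrial, immunoglobulin and rRNA-like genes, and a pseudocount of 0.1. Cells under 25% mitochondrial content, cells without shared barcodes and macrophages with fewer than 10 UMIs of the gene were added after seeing the data. Python 3.11.15, numpy 2.4.6, scipy 1.17.1, pandas 2.3.3 and matplotlib 3.10.9 were used.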

Additional observations from a re-analysis of the deposited data

Results flagged for a closer look

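In 4 instances, a gene differed between the libraries in opposite directions in macrophages and in another cell type, with counting intervals that exclude 0 both as measured and after the median of all genes of each cell type was subtracted. *Itgav* in epithelial cells, at -0.17, is not among them, since all genes had a lower median of -0.22 there. How many of all genes differ in this way was not determined, so the 4 instances have no background to be set beside. *Gas6* had a log2 ratio of 0.38 in macrophages but of -0.34 in T cells and -1.04 in B cells, where all genes had medians of -0.079 and -0.32. Both cell types were also taken as a background for *Gas6*, and the part of free mRNA in their levels was not tested. *Timd4* had a log2 ratio of 0.67 in dendritic cells and of -1.68 in macrophages, the latter from 25 and 24 UMIs. The value in macrophages was 0.75 in cells matching their markers and -0.28 with a pseudocount of 0.1, so the opposite direction depends on few cells and on the cells taken. *Itgav* had a log2 ratio of -0.80 in fibroblasts and of 0.25 in macrophages. With 1 library per genotype, these differences between cell types were not tested.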

How the results depend on the processing

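No paired analysis was possible because each genotype has 1 library. The intervals do not cover the spread between cells, mice or libraries. Log2 ratios in macrophages that left their counting interval are given here by alternative. UMIs summed over cells gave 0.17 for *Mertk*, -3.01 for *Mfge8* and 0.51 for *Itgav*, and 3.89% and 5.9% of all genes at least 1.5-fold higher and lower. Thinning to 1000 UMIs gave 0.63 for *Axl*, 0.083 for *Stab1* and -0.38 for *Cd36*. Cells of 4000 to 8000 UMIs gave 0.085 for *Mertk*, 0.11 for *Pros1*, 0.31 for *Stab1* and 0.92 for *Itgav*, and the opposite direction for *Mfge8* (0.15) and *Cd36* (0.42). Cells with at least 500 genes and under 10% mitochondrial content gave -2.38 for *Mfge8*. Subtraction of the level in T cells gave 1.60 for *Gas6* and -2.36 for *Mfge8*. Cells matching their markers gave 0.22 for *Axl*, -0.16 for *Mertk*, -2.45 for *Mfge8*, -0.17 for *Stab1*, -0.40 for *Cd36* and the opposite direction for *Timd4* (0.75). Totals without mitochondrial, immunoglobulin and rRNA-like genes, which moved the median of all genes from -0.055 to 0.054, gave 0.48 for *Axl*, -2.07 for *Mfge8*, 0.043 for *Stab1* and 0.33 for *Itgav*. A pseudocount of 0.1 gave -2.08 for *Mfge8* and -0.28 for *Timd4*. Without macrophages of 10 or more UMIs of the gene, an alternative added after seeing the data, *Mfge8* was at -0.88 and *Cd36* at -0.86, values that can also reflect the depth of the libraries, since cells were removed by a fixed number of UMIs. The cause of these shifts was not tested. Leaving out cells at or over 25% mitochondrial content or with shared barcodes, also added, moved none of 10 ratios out of its interval. Subtraction gave no value for *Tyro3* and *Itgav*, and thinning and the range of depth gave none for *Tyro3* and *Timd4*. Levels by cell type stayed within their interval for 103, 138 and 125 of 158 values with summed UMIs, the stricter filter on cells and cells matching their markers.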
